A study of Mus musculus with 4 samples.

Results

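Genes of mitosis and chromosome segregation were followed in mouse colon on 4 dual-color gene expression arrays. The list held 52 genes, and a probe was counted as a member's when the gene name printed in the array files was that of the member, with *Cdc2a* taken as *Cdk1*. The 52 members had 93 probes of 60 bases among 41174 gene probes, which carried 27343 gene names in all, and 21 members had a single probe. The members had been chosen by function, and every one of them passed the filter on dim probes in each experiment, which asks that 1 or both channels be well above background on each of its arrays. They were ordered by role into mitotic entry kinases and cyclins (8 genes), chromosome structure and condensin (7), the chromosomal passenger complex (4), centromere and kinetochore (10), the spindle checkpoint (4), anaphase onset and cohesion (6), spindle motors and microtubule proteins (10) and cytokinesis (3).

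The study asked how R-spondin 3, a secreted enhancer of Wnt signaling made by stromal cells beneath the crypts, acts on the stem cells of the colon, and it used 2 array experiments on male C57BL/6 mice of 6 to 8 weeks. In the first, RNA of 1 *Rspo3* KO mouse was hybridised against RNA of 1 control mouse on each of 2 arrays, which gives 2 pairs of mice. KO mice were *Myh11CreErt2/Rspo3* fl/fl, in which tamoxifen deletes *Rspo3* in cells with activity of the *Myh11* promoter, namely smooth muscle cells and myofibroblasts. Control mice were *Myh11CreErt2/Rspo3*+/+ littermates that carried the same Cre and are described with the same tamoxifen (4 mg per 25 g bodyweight, 1 dose or 3 daily doses), and colon was taken 2 weeks later. In the other experiment, the samples were Axin2+ and Axin2- epithelial cells of *Axin2CreErt2/Rosa26-tdTomato* mice, sorted among live ESA+ cells 24 h after tamoxifen by the presence or absence of tdTomato and pooled from 3 mice. These 2 pools were hybridised on 2 arrays with the dyes reversed, so this experiment is 1 replicate and has no p-value. In the first experiment the dyes were reversed between the pairs, with the KO in Cy5 in pair 1 and in Cy3 in pair 2, so that what differs between the pairs and what differs between the dyes cannot be told apart. Labels name distal colon for the KO arrays, whereas the methods name colon and, in one place, colon epithelium.

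A cell enters mitosis when cyclin-dependent kinase 1 is switched on by its cyclins, and condensin and topoisomerase II then compact the chromosomes. Kinetochores assemble on the centromeres and catch spindle microtubules, the checkpoint holds back the anaphase-promoting complex until all chromosomes are attached, and the cell is then cut by the cytokinesis machinery. In the colon, dividing cells lie in the lower part of the crypt, and cells stop dividing as they move towards the surface, so the RNA of these genes is widely used as a measure of proliferation.

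Transcription of many of these genes peaks together in late G2 and mitosis, and pairs of CCAAT boxes, bound by NF-Y, with a cell cycle genes homology region (CHR), bound by complexes of the MuvB core, are known for such promoters. Promoter windows from RefSeq (GRCm38.p6) reach from 250 bases before to 50 bases after the annotated start and were at hand for 44 members, while *Aurkb*, *Ccna2*, *Cdc25c*, *Incenp*, *Kif20a*, *Smc4*, *Spc24* and *Tpx2* had none. The letters CCAAT were searched on both strands, as were TTTGAA and TTCGAA for the CHR, and for genes with several windows the first was taken. CCAAT was found in 33 of the 44 windows (75%), against 37.9% of the 27025 windows of this length in the table. TTTGAA or TTCGAA was found in 32 (72.7%), against 19.4% of all windows. Both were found in 28 (63.6%), against 7.7%. These matches are a description of letters, and binding was not measured here.

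**Figure D1:**
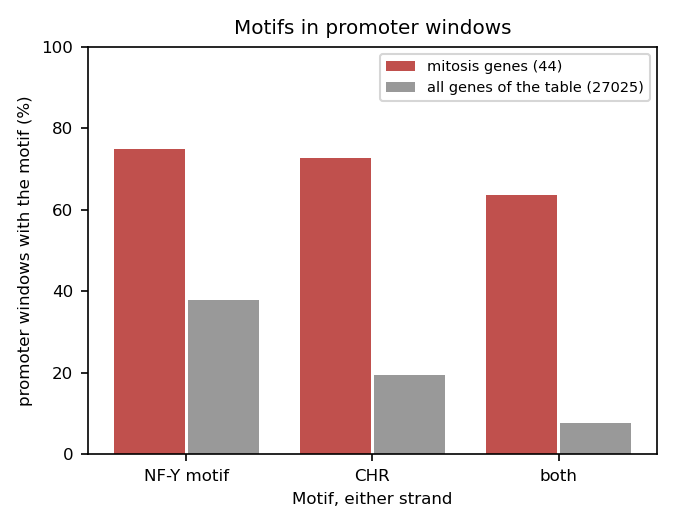
Share of promoter windows of 300 bases, in percent, that hold the NF-Y motif (CCAAT), the CHR motif (TTTGAA or TTCGAA) or both, on either strand. Red bars stand for the 44 mitosis genes with a window and grey bars for the 27025 genes of the table, and each red bar is higher than the grey bar beside it, at 75%, 72.7% and 63.6% against 37.9%, 19.4% and 7.7%.

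The 250 bases before the annotated start are shown for 5 members named below, taken only if this stretch held both motifs. Among members looked at but not shown, the *Birc5* window held neither motif and the *Ccnb1* window no CHR match. In *Aurka* and *Plk1* the only CHR match lay after the start. The stretches run 5′ to 3′ in the direction of the gene, with every CCAAT and CHR match of either strand in capitals.
Mki67 (chr7:135716380-135716629, minus strand): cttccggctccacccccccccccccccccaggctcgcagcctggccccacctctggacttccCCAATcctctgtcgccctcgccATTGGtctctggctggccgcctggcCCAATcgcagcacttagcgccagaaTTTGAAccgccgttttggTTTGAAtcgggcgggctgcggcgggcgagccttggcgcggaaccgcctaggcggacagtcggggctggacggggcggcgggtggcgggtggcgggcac
Cdk1 (chr10:69352913-69353162, minus strand): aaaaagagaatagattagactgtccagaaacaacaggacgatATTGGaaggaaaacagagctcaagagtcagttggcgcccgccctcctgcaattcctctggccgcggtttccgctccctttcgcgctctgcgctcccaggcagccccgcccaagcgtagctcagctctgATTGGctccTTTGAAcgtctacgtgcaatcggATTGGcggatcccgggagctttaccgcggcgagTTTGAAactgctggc
Top2a (chr11:99024190-99024439, minus strand): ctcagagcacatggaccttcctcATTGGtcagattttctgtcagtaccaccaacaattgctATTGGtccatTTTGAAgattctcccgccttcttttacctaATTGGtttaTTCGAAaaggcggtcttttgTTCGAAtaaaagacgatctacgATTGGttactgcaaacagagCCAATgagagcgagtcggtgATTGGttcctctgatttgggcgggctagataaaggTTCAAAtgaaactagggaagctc
Cdc20 (chr4:118437344-118437593, minus strand): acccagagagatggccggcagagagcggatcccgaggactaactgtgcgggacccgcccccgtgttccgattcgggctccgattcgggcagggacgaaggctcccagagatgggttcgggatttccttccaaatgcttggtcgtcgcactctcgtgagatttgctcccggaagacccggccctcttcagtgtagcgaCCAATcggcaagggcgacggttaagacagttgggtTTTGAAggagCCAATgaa
Kif22 (chr7:127042421-127042670, minus strand): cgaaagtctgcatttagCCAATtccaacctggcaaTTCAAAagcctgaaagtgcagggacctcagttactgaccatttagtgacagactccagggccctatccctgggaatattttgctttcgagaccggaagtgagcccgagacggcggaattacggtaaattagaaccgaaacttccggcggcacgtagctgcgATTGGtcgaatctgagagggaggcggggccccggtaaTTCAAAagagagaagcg

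The *Top2a* stretch held 6 CCAAT and 4 CHR matches, the most of these 5 genes. The *Cdk1* and *Mki67* stretches held 3 CCAAT and 2 CHR matches each. In the *Cdc20* stretch, 1 CHR match lay between 2 CCAAT matches.

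In sorted epithelium, most mitosis genes were higher in Axin2+ than in Axin2- cells, and the ratios agreed between the arrays. Here and below, ratios are log2 ratios with Axin2+ cells or the KO on top, so that a value of 1 is a doubling. The median over the 52 members was 0.68 on array 1 and 0.65 on array 2, against 0.02 and -0.03 over the 15880 genes measured. By the mean of both arrays, with the same sign on both, 32 members were higher past 1.5-fold and 0 were lower, where 7.87% of all genes were higher and 6.92% lower. Past 2-fold 8 members were higher, where 1.7% of all genes were. This count takes the brightest probe of each gene. Dimmer probes of *Cenpe*, *Smc4*, *Top2a* and *Ncapg* lay under 2-fold, while that of *Mki67* stayed past it. On both arrays 48 members were higher, 2 were lower (*Bub1* and *Pttg1*), and *Kif2c* and *Anln* had opposite signs. The difference between the arrays had a median size of 0.10 and reached at most 0.36, and it covers technical error only.

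**Figure D2:**
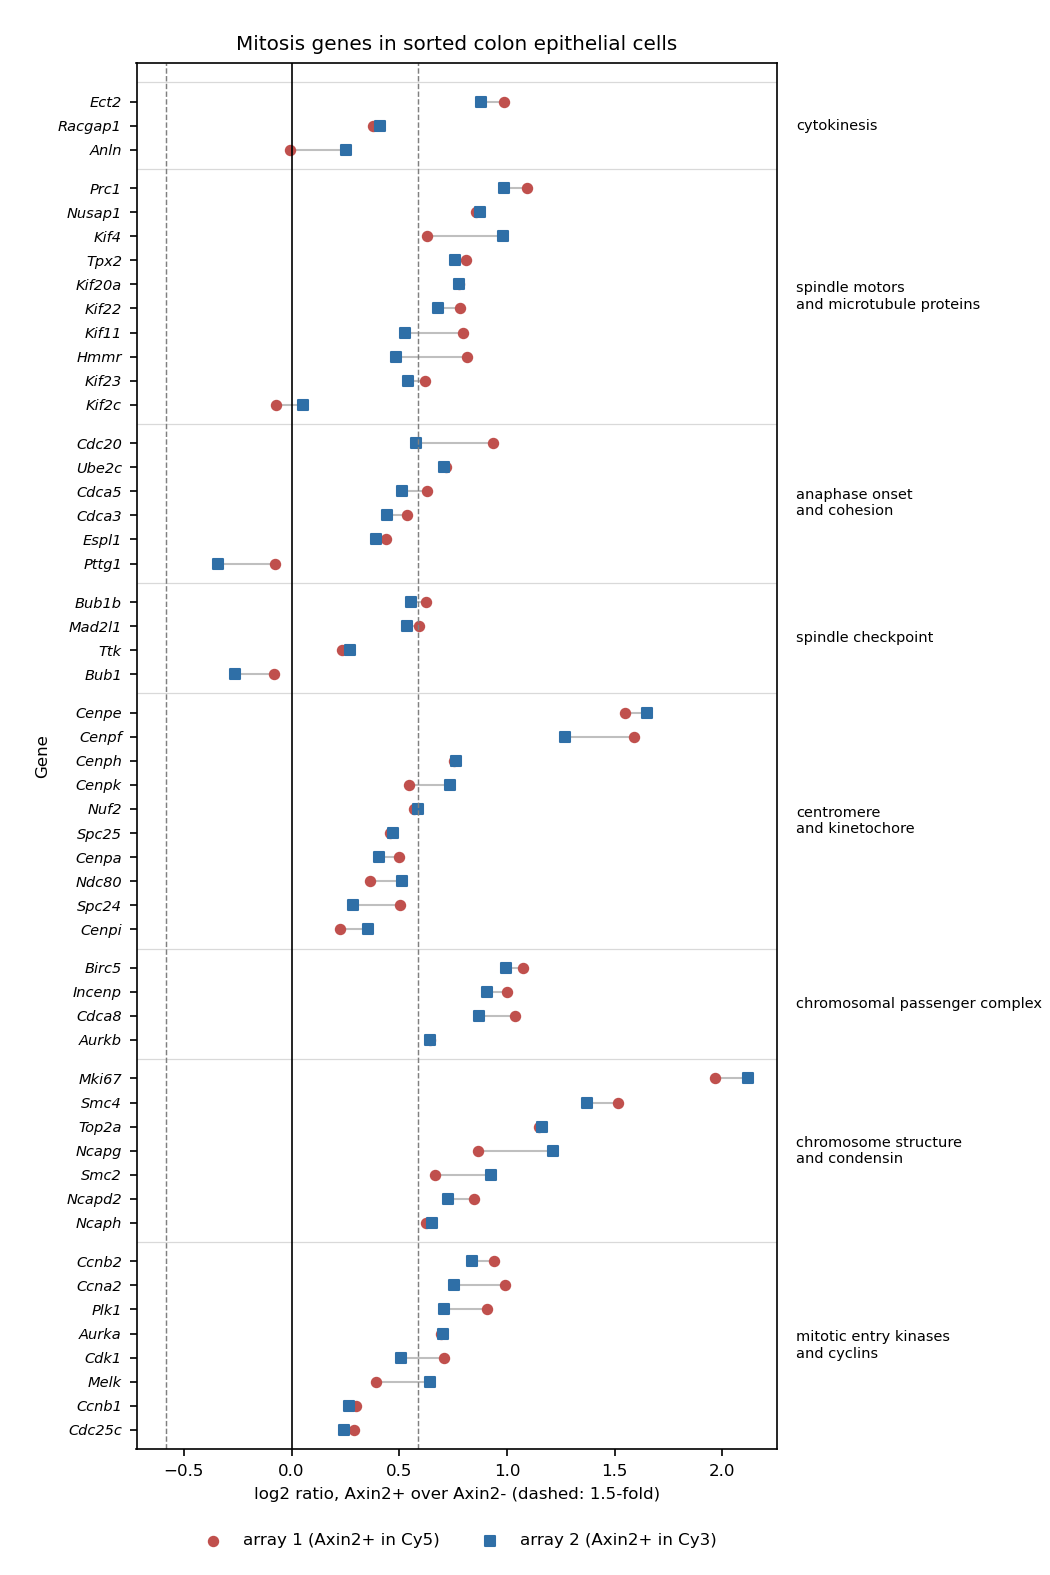
Log2 ratio of Axin2+ over Axin2- cells for each of the 52 mitosis genes, grouped by role. Red circles are array 1, blue squares array 2 with the dyes reversed, and dashed lines mark 1.5-fold. Most points lie to the right of 0 and both points of a gene lie close together, with *Mki67* farthest right at 1.96 and 2.12 and *Pttg1* and *Bub1* to the left of 0.

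All 7 chromosome structure genes were past 1.5-fold, with role medians of 0.87 and 1.16 on the arrays. *Mki67*, which encodes the coat protein of mitotic chromosomes Ki67, was the highest of the 52 members at 1.96 and 2.12, which is 4.12-fold by the mean. The probe covers chr7:142881591-142881650 of mm9, and its second probe gave 1.36 and 1.47. *Smc4*, a core subunit of condensin, was at 1.52 and 1.37, and *Top2a*, the topoisomerase that untangles sister DNAs, at 1.15 and 1.16. The other condensin genes were lower in this order, down to *Ncaph* at 0.62 and 0.65, and *Ncapg* (0.87 and 1.21) and *Smc2* (0.67 and 0.93) were among those with the widest gaps between the arrays. Dimmer probes gave 0.82 and 0.65 for *Smc4*, 0.80 and 0.90 for *Top2a*, and 0.17 and 0.20 for *Ncapg*.

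All 4 genes of the chromosomal passenger complex, which corrects faulty attachments and guides cytokinesis, were past 1.5-fold. *Birc5*, which encodes survivin, was at 1.07 and 0.995, *Incenp*, the scaffold, at 1.001 and 0.91, and *Cdca8*, which encodes borealin, at 1.04 and 0.87. *Aurkb*, the kinase of the complex, was lowest at 0.64 on both arrays.

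Among spindle motors and microtubule proteins, 8 of 10 were past 1.5-fold. *Prc1*, which bundles the microtubules of the central spindle, was highest at 1.09 and 0.99. *Nusap1*, *Kif4*, *Tpx2*, *Kif20a*, *Kif22*, *Kif11* and *Hmmr* had means between 0.65 and 0.86. *Kif23*, a motor of the central spindle, missed the threshold at 0.62 and 0.54, and *Kif2c*, which depolymerises microtubules at kinetochores, was at -0.07 and 0.05.

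Centromere and kinetochore genes were widely spread. *Cenpe*, a kinetochore motor, was at 1.55 and 1.65 by its brightest probe. Its dimmer probes gave 0.58 and 0.85, and 0.46 and 0.52. *Cenpf*, a large outer kinetochore protein, was at 1.59 and 1.27. The other 8 had means of 0.76 (*Cenph*) or less, with *Cenpk* at 0.55 and 0.74. Genes of the NDC80 complex, which grips the microtubule end, fell short of 1.5-fold in all 4 cases, with means of 0.58 for *Nuf2*, 0.46 for *Spc25*, 0.44 for *Ndc80* and 0.40 for *Spc24*. The lowest was *Cenpi* at 0.22 and 0.36, and *Cenpa*, the histone of centromeres, was at 0.50 and 0.40.

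Of the mitotic entry genes 5 of 8 were past 1.5-fold. *Ccnb2* was highest at 0.94 and 0.84, followed by *Ccna2* at 0.99 and 0.75, both of them cyclins of *Cdk1*. *Plk1*, a kinase of every mitotic stage, was at 0.91 and 0.71, *Aurka*, the kinase of spindle poles, at 0.69 and 0.70, and *Cdk1* itself at 0.71 and 0.51. *Melk*, a kinase, was at 0.39 and 0.64. *Ccnb1* was at 0.30 and 0.27 by its brightest probe and had means of 0.60 and 0.55 by its other 2 probes. The phosphatase gene *Cdc25c* was lowest at 0.29 and 0.24.

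Genes of the checkpoint and of anaphase had lower ratios. *Cdc20*, the activator of the anaphase-promoting complex that the checkpoint restrains, was at 0.93 and 0.58, and *Ube2c*, the ubiquitin-conjugating enzyme of that complex, at 0.71 on both arrays. *Cdca5* (0.63 and 0.51), *Cdca3* (0.54 and 0.44) and *Espl1*, which encodes separase (0.44 and 0.39), stayed under 1.5-fold. *Pttg1*, which encodes the separase inhibitor securin, had 1 bright probe and was at -0.08 and -0.34.

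In the checkpoint itself *Bub1b* was at 0.62 and 0.55, just past 1.5-fold by its mean, *Mad2l1* at 0.59 and 0.53, and *Ttk*, the kinase Mps1, at 0.24 and 0.27. *Bub1*, the kinase that starts checkpoint assembly, had 2 probes that went opposite ways. The brighter one on these arrays (chr2:127626326-127626385 of mm9) was at -0.08 and -0.26. The other one (chr2:127626988-127627047) was at 0.64 and 0.87, so the position of *Bub1* rests on the probe. Of the 25 members with 2 or more probes above background, 23 had all probes on the same side of 0 on each array, and *Cenpk* was the other exception, through 1 dim probe.

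Cytokinesis genes ranged from *Ect2*, which activates RhoA at the cleavage site, at 0.99 and 0.88, over *Racgap1* at 0.38 and 0.41 to *Anln*, the scaffold anillin, at -0.01 and 0.25. Next to the threshold of 1.5-fold lay *Ncaph*, *Cdk1* and *Bub1b* on the inside, with folds of 1.56, 1.52 and 1.504, and *Kif23*, *Nuf2* and *Cdca5* on the outside, with folds of 1.496, 1.49 and 1.48. In 6 members a dimmer probe was not well above background in Axin2- cells on either array but was so in Axin2+ cells on both. By the means of these probes the genes were 1.44-fold (*Cenph*), 1.26-fold (*Nusap1*), 1.25-fold (*Kif23*), 1.17-fold (*Smc2*), 1.12-fold (*Cdc25c*) and 1.11-fold (*Anln*) higher in Axin2+ cells. The probe's own signal was taken as the level of Axin2- cells, since it was not below the weakest signal well above background there. These folds are thus the probes' measured ratios and not lower bounds. The *Anln* probe was at -0.007 on array 1 and 0.31 on array 2, so it was higher on array 2 only.

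Beyond the members, 75 other genes of mitosis were on the arrays. Of these 26 were higher past 1.5-fold in Axin2+ cells, 0 were lower, and their median was 0.43 and 0.46. The highest were the motor gene *Kifc1* (1.07 and 1.29), *Fbxo5*, an inhibitor of the anaphase-promoting complex (1.06 and 1.07), and the kinetochore scaffold gene *Knl1* (0.95 and 1.18). Among the lowest were *Mad1l1* (0.09 and -0.14) and *Troap* (0.08 and 0.06).

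Marks of the sort stood where its labels put them, with *Axin2* at 1.35 and 1.30 and *Lgr5*, a gene of crypt base stem cells, at 1.497 and 1.56. Markers of the crypt base had medians of 1.11 and 0.96 (9 of 10 higher on both arrays), while 10 of 10 markers of surface colonocytes were lower, with medians of -2.37 and -2.52. *Epcam*, which encodes the antigen ESA, was at 0.04 and 0.03. Markers of lower crypt cells thus moved together with the mitosis genes, and their part in the mitosis ratios was not tested.

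The KO arrays gave a different picture, because the 2 arrays, which differ in both the pair of mice and the dye of the KO, went opposite ways. In pair 1 mitosis genes were lower in the KO, with a median of -0.56 over the 52 members and 47 of them below 0. In pair 2 they were higher in the KO, with a median of 0.26 and 42 of them above 0. The medians over the 15373 genes measured were -0.002 and -0.02. In all 39 members were lower in pair 1 and higher in pair 2, a combination seen in 26.4% of all genes. Another 8 were lower in both pairs, 3 were higher in both and 2 were higher in pair 1 and lower in pair 2. The pairs correlated across the 52 members with a Pearson's r of -0.29 (Spearman's rho -0.26), and across the 13623 genes measured in both experiments with an r of 0.02 (rho -0.14). Genes are not independent replicates, and every point takes its values from the same 2 arrays of 1 slide.

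**Figure D3:**
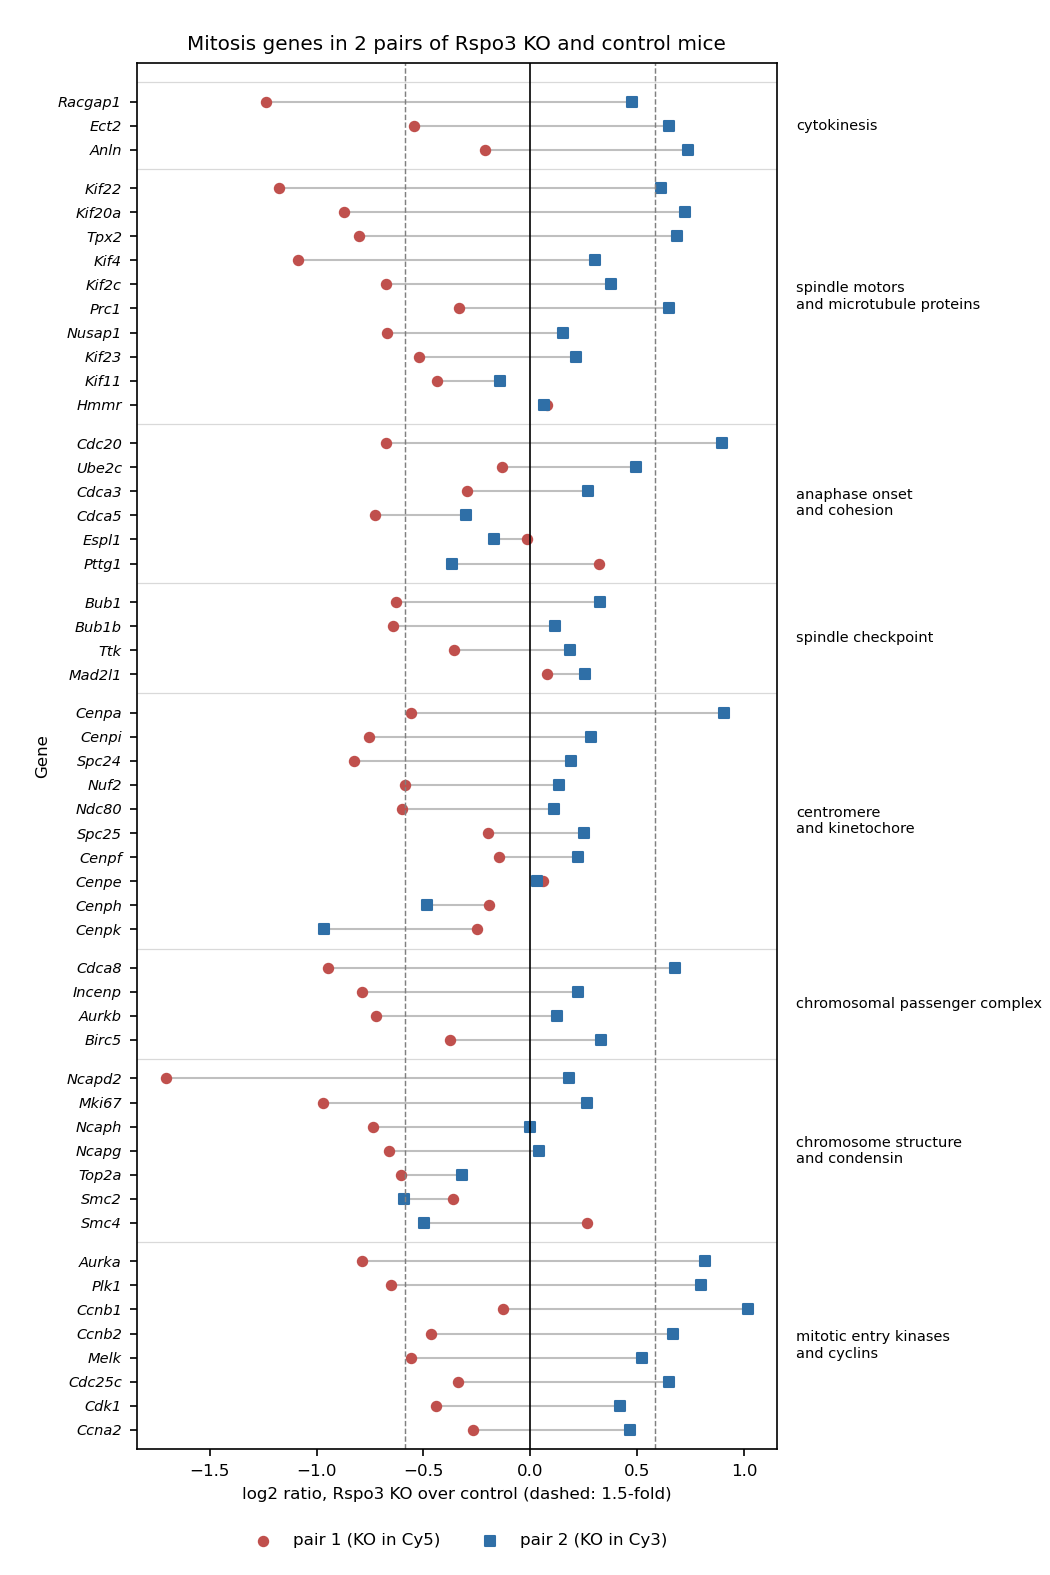
Log2 ratio of *Rspo3* KO over control for each of the 52 mitosis genes, grouped by role. Red circles are pair 1, blue squares pair 2, and dashed lines mark 1.5-fold. For 39 of the genes the red circle lies to the left of 0 and the blue square to the right, with *Ncapd2*, *Kif22* and *Racgap1* farthest apart.

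Past 1.5-fold, 25 members were lower in pair 1, where 7.48% of all genes were, and 14 were higher in pair 2, where 4.48% were. Both held for 7 members. With the mean of the pairs and the same sign in both, 1 member (*Cenpk*) was lower past 1.5-fold, where 2.47% of all genes were, and 0 were higher, where 1.85% were. In limma's test of the 2 pairs against 0, with Benjamini-Hochberg adjustment over all genes measured, 0 members passed at an adjusted p of 0.05, while 0.241% of all genes did (37 of 15373). At an unadjusted p under 0.05, 1 member and 715 genes were counted. The median of the members' mean ratios was -0.11. Standard errors of the members ran from 0.23 to 0.41 on the log2 scale.

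The widest gaps between the pairs were those of condensin, spindle motor, cytokinesis, passenger complex and entry kinase genes. *Ncapd2*, a subunit of condensin I, was at -1.71 in pair 1 and 0.18 in pair 2. *Kif22*, a motor on chromosome arms, was at -1.17 and 0.61, and *Racgap1*, a regulator of the central spindle, at -1.24 and 0.47. These 3 had the lowest ratios of all members in pair 1. *Cdca8* was at -0.95 and 0.68, *Aurka* at -0.79 and 0.82 and *Kif20a*, a motor of the central spindle, at -0.87 and 0.73. For *Aurka* the mean over the pairs was 0.01 with a standard error of 0.37.

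At the other end stood *Smc4* (0.27 and -0.50), *Cenpk*, a kinetochore gene (-0.25 and -0.96), and *Pttg1* (0.32 and -0.37), which were lower in pair 2 than in pair 1. *Cenph* (-0.20 and -0.48), *Smc2* (-0.36 and -0.59) and *Espl1* (-0.02 and -0.17) followed with small gaps. *Cenpk* had the smallest unadjusted p of the members, with a mean of -0.61, a standard error of 0.26, an unadjusted p of 0.0499 and an adjusted p of 0.9997 in limma.

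**Figure D4:**
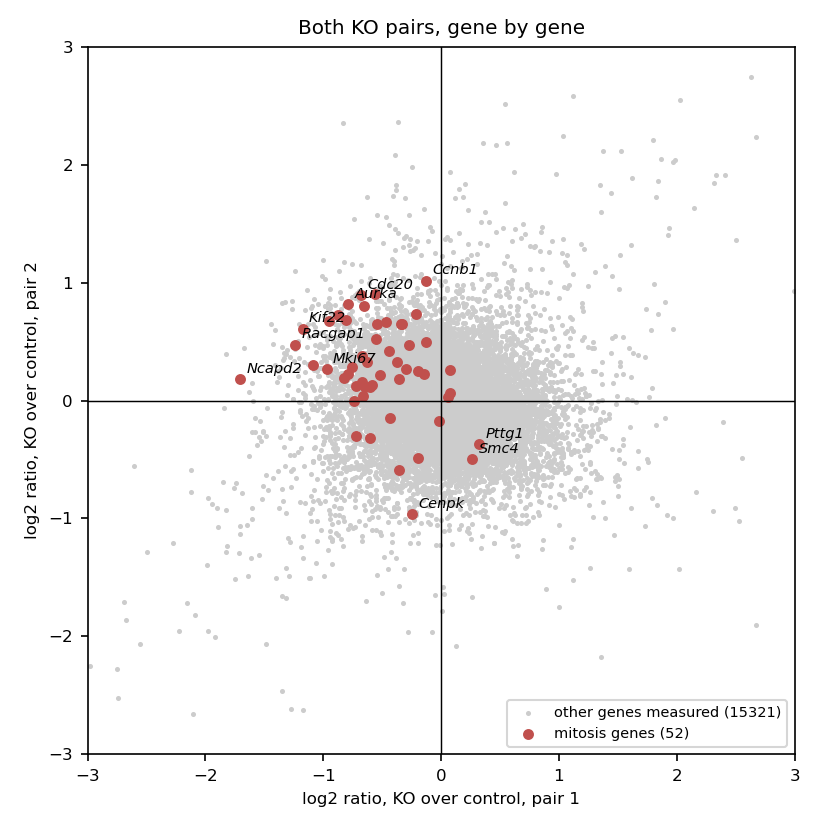
Log2 ratio of KO over control in pair 1 (horizontal) and pair 2 (vertical), 1 point a gene. Red points are the 52 mitosis genes and grey points the 15321 other genes measured, of which 15 lie outside the axes. Most red points lie above and to the left of 0, with *Ncapd2* at -1.71 and 0.18 and *Ccnb1* at -0.13 and 1.02.

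By role, all 8 mitotic entry genes, all 4 passenger complex genes and all 3 cytokinesis genes were lower in pair 1 and higher in pair 2. This holds for the brightest probe of each gene, and other probes of *Ccnb1* and *Cdca8* differed, as given below. Medians of the entry genes were -0.45 and 0.66. *Ccnb1* was the highest member in pair 2 at 1.02 (-0.13 in pair 1), *Plk1* was at -0.65 and 0.80, *Cdk1* at -0.44 and 0.42, and *Cdc25c* at -0.34 and 0.65. In the passenger complex, with medians of -0.75 and 0.28, *Aurkb* was at -0.72 and 0.12 and *Birc5* at -0.37 and 0.33. Cytokinesis genes had medians of -0.54 and 0.65, with *Anln* at -0.21 and 0.74.

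Spindle motors followed in 8 of 10 cases, with medians of -0.67 and 0.34. *Tpx2*, which starts microtubule growth near chromosomes, was at -0.80 and 0.69. *Hmmr* was near 0 in both pairs by its brightest probe, at 0.08 and 0.06, and *Kif11*, the motor that pushes spindle poles apart, was at -0.44 and -0.14. In the checkpoint 3 of 4 genes followed, *Bub1* only by its brighter probe on these arrays, and *Mad2l1* was at 0.08 and 0.26. Of the 10 kinetochore genes 7 followed, with *Cenpa* at -0.56 and 0.91. *Cenpe*, so much higher in Axin2+ cells by its brightest probe, was at 0.06 and 0.03 by the same probe.

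Chromosome structure genes were lower in pair 1 in 6 of 7 cases (median -0.66) but lay on both sides of 0 in pair 2 (median -0.002). *Mki67* was at -0.97 and 0.27, and *Top2a* at -0.61 and -0.32. *Ncaph* was at -0.74 in pair 1 and -0.002 in pair 2. Genes of anaphase onset were mixed too, with 3 of 6 lower in pair 1 and higher in pair 2, among them *Cdc20* at -0.68 and 0.90, while *Cdca5*, which encodes the cohesion protein sororin, was at -0.72 and -0.30.

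Several members had probes that disagreed on the KO arrays. Of the 19 with 2 or more probes above background, 10 had all probes on the same side of 0 in each pair. For *Ncapd2* the other 2 probes were at -0.88 and -0.62 and at -0.59 and -0.82, so its value above 0 in pair 2 belongs to its brightest probe. For *Ccnb1* the other 2 probes were at 0.29 and 0.37 and at 0.006 and 0.78. Its value below 0 in pair 1 thus belongs to its brightest probe. A second *Cdca8* probe was at -0.29 and -0.08, and a second *Cenpe* probe at -0.76 and 0.58. A second *Smc4* probe was at -0.24 and -0.04, and a second *Smc2* probe at -0.47 and 0.38. *Ncapg* was at -0.66 and 0.04 by its brightest probe and at 0.13 and -0.02 by its second. A second *Hmmr* probe was at -0.12 and 0.23. *Bub1* was read here from a probe at -0.63 and 0.33. Its second probe, the one read on the Axin2 arrays, was at 0.07 and -0.12. Both *Kif20a* probes, by contrast, gave like values, at -0.87 and 0.73 and at -0.76 and 0.62, and both *Kif4* probes did, at -1.09 and 0.30 and at -0.76 and 0.18.

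Where the gap arises can be described from the channels, with intensities made comparable between arrays on a log2 scale. *Aurka* was at 13.30 in the control and 12.51 in the KO of pair 1, and at 11.92 in the control and 12.74 in the KO of pair 2. *Kif22* was at 14.15 and 12.97 in pair 1 and at 12.82 and 13.43 in pair 2, in the same order. In both cases the control of pair 1 was the highest of the 4 mice and the control of pair 2 the lowest. Over the 52 members the control of pair 2 lay below that of pair 1 by a median of -0.52 (46 of 52 lower), and the KO of pair 2 lay above that of pair 1 by 0.31 (41 of 52 higher), against 0.002 and -0.01 over all genes. Each of these contrasts sets a Cy3 channel against a Cy5 channel, so mouse and dye cannot be told apart in them. On the Axin2 arrays, where the same RNA was run with both dyes, the part of the members' ratios that turned with the dye had a median of 0.02, and on the KO arrays the same quantity, which there also holds the difference between the pairs, had a median of -0.42. The Axin2 value comes from other RNA and does not give the dye part of the KO arrays.

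Other lists moved with the pairs as well. Markers of surface colonocytes, cells that no longer divide, had medians of 0.50 in pair 1 and -0.33 in pair 2 (7 of 10 measured). The signs of these medians are the reverse of those of the mitosis genes, but the list was mixed. Of the 7 markers, 4 were higher in pair 1 and lower in pair 2, as were 4518 of all 15373 genes. Another 2 were higher in both pairs and 1 was lower in both. Crypt base markers had medians of -0.55 and -0.74, and 7 of 10 were lower in both pairs. Of the others, 1 was lower in pair 1 and higher in pair 2, and 2 were the reverse. *Lgr5*, not well above background in the KO of either pair, was at -1.28 and -2.61. By the mean of the pairs and the probe's own signal this is 3.85-fold lower than in the controls, with an adjusted p of 0.0996 in limma. Markers of B cells, whose follicles in the colon hold dividing cells, were lower in both pairs, with medians of -2.15 and -1.29 (9 of 12 measured), while those of germinal centre B cells were at -0.03 and -0.05, with 4 of 7 measured. Smooth muscle markers were at 0.27 and 0.11 with 8 of 9 measured, so RNA of the muscle was in these samples. The part of these lists in the mitosis ratios was not tested, and fewer dividing cells and less RNA in each cannot be told apart in bulk RNA. *Rspo3* itself had no usable probe, since neither was well above background on both KO arrays, and gives no check of the KO.

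**Figure D5:**
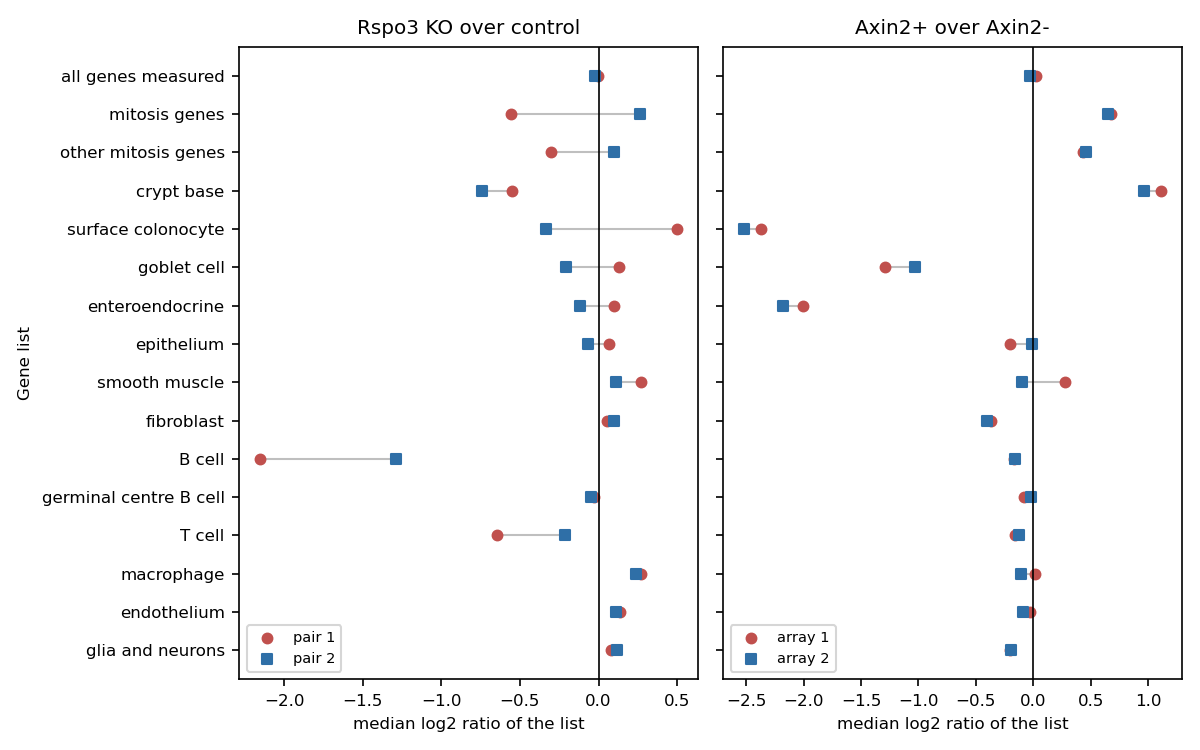
Median log2 ratio of each gene list, for KO over control on the left (red circles pair 1, blue squares pair 2) and for Axin2+ over Axin2- cells on the right (red circles array 1, blue squares array 2). On the left the mitosis genes lie at -0.56 and 0.26 and the surface colonocyte markers at 0.50 and -0.33, while on the right both symbols of each of these lists lie on the same side of 0.

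The 75 other mitosis genes had the same layout in smaller size. Of the 74 measured, 39 were lower in pair 1 and higher in pair 2, with medians of -0.30 and 0.10, and limma called 0, with 1 at an unadjusted p under 0.05. The highest means were those of *Kifc1* (0.13 and 0.98), *Cdkn3*, a phosphatase (0.05 and 0.94), and *Zwint*, a kinetochore gene (0.60 and 0.35). The lowest were those of *Pkmyt1*, an inhibitor of *Cdk1* (-0.78 and -0.47), *Foxm1*, which encodes an activator of mitosis genes (-1.30 and 0.13), and *Mybl2*, which encodes another (-0.90 and -0.09).

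Of the 32 members past 1.5-fold in Axin2+ cells, 23 were lower in pair 1 and higher in pair 2 (71.9%), against 39 of all 52 members and 19% of the 1198 genes that were higher past 1.5-fold in Axin2+ cells and measured in both experiments. Across the 52 members the Axin2+ ratio had a Pearson's r of -0.06 with the ratio in pair 1 and of -0.09 with that in pair 2, against -0.08 and -0.17 across all genes measured in both experiments. The size of the pair 1 values depended on the processing. When spots with a background outlier were kept in the background fit, the median in pair 1 was -0.25 and 12 members were lower past 1.5-fold, while pair 2 kept its median of 0.26 and 39 members were still lower in pair 1 and higher in pair 2. With the arrays centred on their medians in place of loess, the members' medians were 0.10 and -0.32, where those of all genes were 0.55 and -0.52, and 1 member was lower past 1.5-fold in pair 1.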

How the data were processed

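Intensities were read for 4 Agilent arrays (probe positions of mm9). The authors labelled and hybridised total RNA, scanned the arrays and extracted them with Agilent Feature Extraction (version 11.5.1.1). The authors deposited, for every spot, the mean signal and background intensity of each dye, and a log10 ratio (Cy5 over Cy3) with its error on that log10 scale, both computed by the software. The series' value table, also deposited by the authors, holds the same log10 ratio. The software's own p-values were not used. The labels and the methods differ on how the colon RNA was extracted.

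From the intensities, background was corrected in limma (version 3.58.1, R 4.3.3) by normexp with an offset of 50, leaving background-outlier spots (66 and 6 on the KO arrays) out of the fit. Control spots and outlier spots (510, 443, 131 and 124) were then left out, the log2 ratios of every array were normalised by loess and turned so that KO or Axin2+ is on top. Spots of a probe were averaged, and a gene was read from its brightest probe if that was well above background in 1 or both channels of each of the experiment's arrays. Per channel 53.1% to 60.3% of gene spots were well above background, and no member probe was saturated; with 2 arrays an experiment, their number limits the precision. RefSeq (GRCm38.p6) gave the names of 27668 probes through an accession, of 5589 through a symbol and of 471 through a synonym, while 7446 kept that of the array files.

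KO ratios were tested against 0 with limma (lmFit and eBayes, 1 residual and 6.75 prior degrees of freedom) with Benjamini-Hochberg adjustment over all genes, a test tried on simulated data. A gene was called in the Axin2 experiment when its mean passed 1.5-fold with the same sign on both arrays. Channel levels were scaled between arrays by the Aquantile method. Members, lists and the handling of background outliers were chosen with earlier results of these data known. Named with values on every array were each role's extremes in Axin2+ cells, commonly used marks of mitosis, the members with the widest gaps between the KO pairs, members with probes that disagree or are not well above background in 1 group, and 3 genes at each end of the other mitosis genes, with some results of named genes not reported here. Background correction, normalisation, filter, probe rule, fit and threshold were varied.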

Additional observations from a re-analysis of the deposited data

How the results depend on the processing

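With 2 arrays an experiment, their number limits the precision, and dim probes carry the least signal over background. Each KO array already sets the mice of 1 pair against each other, so limma's test of the 2 pairs against 0 is paired. Between the experiments, no paired analysis was possible because the replicate numbers of the 2 experiments mark unrelated samples. In every alternative run, 0 members were called in the KO.

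The number of all genes called in the KO was 37. It was 130 with the extraction software's log ratios and with the value table, 71 without background correction, 129 with an offset of 16, 1 with normexp fitted to all spots, 8 with median centring, 0 without a filter (limma, 1205 at an unadjusted p under 0.05), 5 with the mean over probes, and, over the 13623 genes measured in both experiments, 53 with all 4 arrays in the fit and 210 with a dye term besides. The causes were not tested.

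The median of Axin2+ members, 0.66, was 0.89 with the software's ratios and with the value table, 0.72 without background correction, 0.74 with an offset of 16 and 0.60 with the mean over probes, and without 1 array it ran from 0.65 to 0.68. Past 2-fold 8 members were higher. With median centring 11 members were higher past 1.5-fold and 5 were lower in pair 1 and higher in pair 2. That setting moved the median of all genes to 0.55 and -0.52 in the KO pairs and to 0.76 and -0.75 on the Axin2 arrays. Relative to these shifts, which was looked at after seeing the data, 36 members were lower in pair 1 and higher in pair 2, at medians of -0.45 and 0.20, and 34 were higher past 1.5-fold in Axin2+ cells. Of all genes, 1249 were higher and 1099 lower past 1.5-fold in Axin2+ cells, against 2743 and 2440 with the software's ratios and with the value table, and 499 and 591 with median centring. The 1 member lower past 1.5-fold by the mean of the KO pairs became 3 with the software's ratios and the value table and 0 with normexp fitted to all spots.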
